A study of Mus musculus with 9 samples.

Results

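Interferon-stimulated genes are the genes whose transcription cells raise when interferon reaches their receptors. A list of 42 of them was described here in sorted mouse bone marrow progenitors. Members were chosen by name. A gene was read through a probe set carrying its symbol alone, and where several did, through the brightest of them on average. By this rule 40 of the 42 listed genes were measured, among 18193 genes in all. Isg15, the ubiquitin-like modifier that gives its name to part of the group, had a probe set that carried 2 symbols, so it was not analysed here, and neither was Ifi44. A single probe set stood for 22 members, and 18 members had more than 1.

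Sorted populations of 3 kinds were compared, with 3 arrays in each. LSK WT cells were lineage negative, cKit+ and Sca1+ marrow cells, a fraction that holds the stem cells and multipotent progenitors. GMP WT cells were lineage negative, cKit+, Sca1-, CD34+ and FcgammaRII/III+, the gate for granulocyte-macrophage progenitors. GMP NcstnKO cells passed the same gate. Both wild-type groups came from Ncstn flox/flox mice, in which the alleles of nicastrin, a subunit of the gamma-secretase protease, were floxed but no Cre was carried. The knockout group came from Ncstn flox/flox Mx1-cre+ littermates. Every mouse, the controls included, received 3 injections of polyIC at 20 µg per g of body weight on alternate days from the age of 14 days, and cells were taken 4 weeks later at 6 weeks of age. PolyIC is a synthetic double-stranded RNA that makes an animal produce type I interferon, and the Mx1 promoter that drove Cre is itself interferon-inducible. Carriage of Mx1-cre and loss of Ncstn cannot be told apart in these groups. No knockout LSK cells were analysed here.

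Type I interferon binds the IFNAR receptor, whose kinases JAK1 and TYK2 activate a complex that holds STAT2 and IRF9 and binds the interferon-stimulated response element (ISRE) in promoters. Interferon gamma acts through another element, GAS. The products sense viral RNA, degrade or trap it, modify proteins with ISG15, and feed peptides to MHC class I, and a few of them, such as USP18, switch the signal off. Stem and progenitor cells are known to carry part of this programme without infection.

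The ISRE is the sequence these genes are known for, and its core is printed for 7 members that held a match and are described in full below. In the 250 bases before the start site, the ISRE core GAAANNGAA on either strand was found in 12 of the 30 members that had an entry in the RefSeq promoter table (GRCm38.p6), 40%. The same search matched 8.18% of all 27025 genes in that table. The GAS element TTCNNNGAA was found in 6 of the 30 members, 20%, against 8.13% of all genes. An ISRE match can overlap the next, and a match is a run of letters, not a shown binding site. Each sequence below is read along the gene's own strand, 5′ to 3′, with the matched bases in capitals; TTCNNTTTC is the core on the opposite strand. Ifit1 lies at chr19:34640760-34640833 (plus strand) and held 3 matches, at 109, 103 and 84 bases before the start. Oas3 lies at chr5:120777700-120777754 (minus), Oas1a at chr5:120907526-120907552 (minus), Gbp2 at chr3:142620585-142620633 (plus), Gbp3 at chr3:142559993-142560021 (plus), Rsad2 at chr12:26456543-26456591 (minus) and Stat2 at chr10:128270257-128270305 (plus).
Ifit1: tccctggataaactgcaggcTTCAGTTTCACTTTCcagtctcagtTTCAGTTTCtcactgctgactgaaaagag
Oas3: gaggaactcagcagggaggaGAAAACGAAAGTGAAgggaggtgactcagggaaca
Oas1a: ttctcggGAAATGGAAACTGAAaatct
Gbp2: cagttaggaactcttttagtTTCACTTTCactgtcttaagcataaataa
Gbp3: acacagtTTCAGTTTCTATTTCccagatc
Rsad2: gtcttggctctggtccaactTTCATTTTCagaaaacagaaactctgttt
Stat2: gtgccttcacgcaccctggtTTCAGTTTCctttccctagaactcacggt
Ifit1, Oas3, Gbp2, Rsad2 and Stat2 were all lower in wild-type GMPs than in LSK cells, whereas Gbp3 was higher with the same kind of match, and Oas1a was the member that rose most in the knockout. These 7 were picked from the members with a match, Stat2 by name and the others by their differences, so their directions follow from the choice. Among the members with a match that are not printed, Ifih1, Ifit3 and Trim30a were lower in wild-type GMPs, and Bst2 and Trim25 did not pass. Among members called between the GMP groups, Psmb9 and Ifi35 had no match in this window and Usp18 and Parp9 no entry. Of the other large falls, Oasl2 had no match and Rtp4, Oas2 and Ifi27l2a no entry.

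Levels are log2 of the deposited array intensity, and a difference of 1 is a doubling. They compare a gene between groups and not between genes, because probe sets differ in brightness. The median intensity of a whole array was 98.3 to 103 in LSK cells and 65.4 to 68.6 in GMPs, so all genes are given beside the members throughout. A mean at or below the signal of absent bacterial control transcripts (4.30 to 4.57 across arrays) is called background. Ncstn itself was 8.99 to 9.13 in LSK WT, 9.25 to 9.31 in GMP WT and 7.76 to 7.79 in GMP NcstnKO. The receptors of the GMP gate were higher in wild-type GMPs than in LSK cells (Fcgr3 by 1.10, Fcgr2b by 0.59), with Kit lower by 0.49 and Cd34 by 0.40, calls that centring on the 75th percentile ended (adjusted p = 0.363 and 0.757). The Sca1 gene Ly6a was not analysed here. The sex transcripts Xist and Eif2s3y went against the labelled sex in 4 of the 9 arrays, GMP WT 2 and 3 and GMP NcstnKO 2 and 3. By transcripts all 3 knockout arrays were female, and LSK WT and GMP WT each held 1 female and 2 male arrays. The labels number the replicates without saying that each is a separate mouse, so p-values measure the spread between these samples. In bulk RNA, fewer cells that express a gene and less RNA per cell cannot be told apart.

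In wild-type GMPs the interferon-stimulated genes were mostly lower than in LSK cells. This comparison sets the LSK gate beside the GMP gate, and cells were not followed as they committed to a lineage. Of the 40 members, 32 fell and 1 rose (limma over all genes, Benjamini-Hochberg adjusted p under 0.05). Among all genes tested 30.5% fell and 7.48% rose. The members' median difference was -1.22 against -0.18 for all genes, and 21 members were at least 2-fold lower. The groups did not overlap in 33 of the 40 members, against 54.6% of all genes. The median level of the members was 9.80 to 9.95 on the LSK arrays and 8.54 to 8.63 on the wild-type GMP arrays. Scaling turned the split of all genes but not that of the members. As deposited 1360 genes rose and 5550 fell, after quantile normalization 3612 and 2796, and with each array centred on its 75th percentile 5949 and 2616. The members gave 1 and 32, 1 and 27, and 4 and 27 in the same order, and their median lay 1.04, 0.94 and 1.04 below that of all genes.

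**Figure D1:**
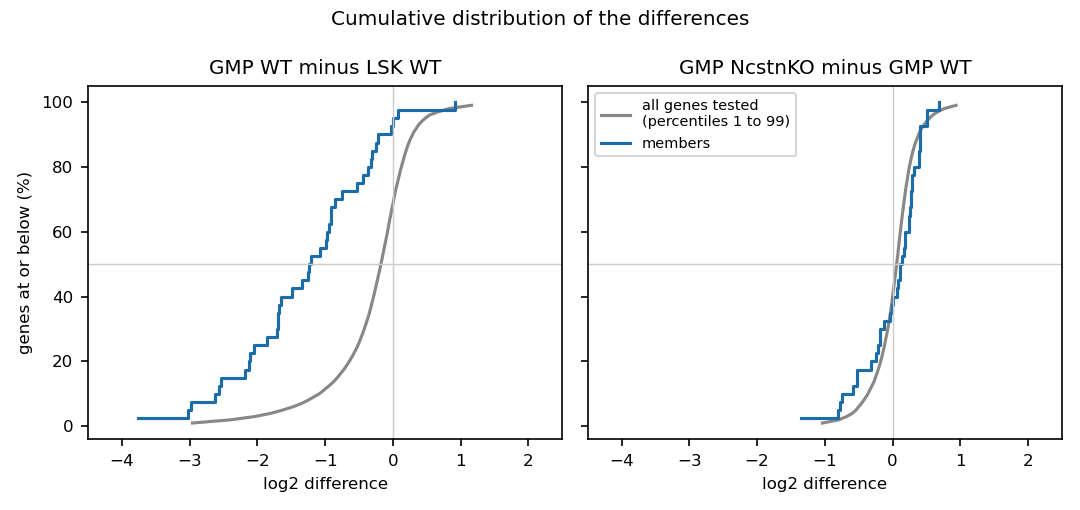
Cumulative share of genes (vertical axis, percent) by log2 difference (horizontal axis) for the 40 members (steps) and for percentiles 1 to 99 of all 18193 genes (smooth line). The members' curve lies to the left of all genes for GMP WT minus LSK WT, crossing the middle line at -1.22 against -0.18, and runs close to all genes for GMP NcstnKO minus GMP WT, at 0.13 against 0.06.

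All 5 sensors of foreign nucleic acid fell. Ddx58, which encodes the RNA sensor RIG-I, stood at 8.94 to 9.13 in LSK cells and 6.80 to 7.14 in wild-type GMPs, a difference of -2.05 ± 0.14 (SE, n = 3 per group). Zbp1, a sensor of nucleic acids in the Z form, differed by -1.72, Ifih1, which encodes MDA5, a sensor of long double-stranded RNA, by -0.97, and Dhx58, which encodes their relative LGP2, by -0.91. Eif2ak2, the RNA-activated kinase PKR that halts translation, differed by -0.36 (limma adjusted p = 0.0455). That call was lost without any array of either GMP group or LSK array 1 (adjusted p from 0.0576 to 0.142), and under both other scalings (-0.10 and -0.01). Its other 2 probe sets, which are dimmer, differed by -1.38 and -0.94.

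Of the 3 IFIT proteins, which bind viral RNA and block its translation, Ifit1 and Ifit3 fell. Ifit1 was 7.74, 7.87 and 7.03 on the LSK arrays and 4.29, 4.69 and 4.60 on the wild-type GMP arrays. The lowest LSK array was 2.34 above the highest GMP array, and the difference was -3.02 ± 0.29 (SE, limma adjusted p = 0.000153). Ifit3 differed by -1.23. Ifit2 overlapped between the groups, at -0.31 (adjusted p = 0.138), and was past the threshold only when GMP WT array 1 was left out (-0.45, adjusted p = 0.0414, 1 of 21 alternatives).

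The oligoadenylate synthetase family, which makes the messenger that activates RNase L, held 3 of the 8 largest falls. Oasl2, an interferon-induced relative, was 7.21, 7.30 and 8.06 in LSK cells and 4.73, 3.71 and 5.19 in wild-type GMPs (difference -2.98 ± 0.48 SE). Oas3 was 7.40, 7.61 and 7.53 against 5.10, 4.77 and 5.00 (-2.56 ± 0.12). Oas2 was 8.42, 8.22 and 8.09 against 5.57, 5.68 and 5.86 (-2.54 ± 0.13). None of these groups overlapped, and the spread was widest for Oasl2, whose GMP WT array 2 lay below its background limit of 4.39. Oasl1, the relative known to restrain translation of Irf7, differed by -2.11, and Oas1a by -1.25, so all 5 members fell.

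The dynamin-like GTPases, which assemble on viral or membrane surfaces, did not move together. Gbp2, a guanylate-binding protein, was 9.89, 10.04 and 9.66 in LSK cells and 7.70, 7.80 and 7.71 in wild-type GMPs, a difference of -2.13 ± 0.29 (SE). Gbp3, from the same family, went the other way, at 10.05, 10.23 and 9.84 in LSK cells and 10.97, 10.91 and 10.98 in wild-type GMPs. Its rise of 0.92 ± 0.12 (SE, limma adjusted p = 0.000729) was the single increase among the members. It lost its call when the 4 arrays whose sex transcripts contradict the label were left out (0.93, adjusted p = 0.0518). Mx2 was 5.53 to 5.75 in LSK cells and at background in wild-type GMPs (means 5.62 and 3.76), so it was at least 2.44-fold lower (adjusted p = 2.61e-05). Mx1, whose promoter drove Cre in the knockout, was 8.40, 7.81 and 8.23 in LSK cells and 6.17, 6.58 and 8.06 in wild-type GMPs. A single GMP array reached the LSK range, and the difference of -1.21 did not pass the test (adjusted p = 0.180). It passed in 2 of 21 alternatives, with labelled sex as a covariate (-2.09, adjusted p = 0.0496) and without the 4 arrays at odds with their labelled sex (-1.98, 0.0233).

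Among the other antiviral effectors 5 of 6 fell. Rsad2, which encodes viperin, an enzyme that makes a chain-terminating nucleotide, was 9.10, 8.64 and 9.12 in LSK cells and 6.44, 6.56 and 7.30 in wild-type GMPs (-2.19 ± 0.23 SE). Samd9l differed by -1.69, Isg20, an exonuclease, by -1.65, Ifitm3, which keeps viruses from fusing with endosomes, by -0.99, and Cmpk2, a mitochondrial nucleotide kinase, by -0.94. Cmpk2 lost its call after quantile normalization (-0.46, adjusted p = 0.174), with centring (-0.59, 0.0849), and without GMP WT array 2 (adjusted p = 0.0608) or LSK array 3 (0.0538). Bst2, the tether of budding virions known as tetherin, overlapped between the groups at -0.22 (adjusted p = 0.153).

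Of the ISG15 system and the TRIM ligases, 3 of 4 members fell. Usp18, the protease that removes ISG15 and blocks the IFNAR receptor, was 8.71, 9.46 and 9.32 in LSK cells and 7.93, 7.29 and 7.78 in wild-type GMPs, with no overlap (-1.50 ± 0.24 SE, limma adjusted p = 0.00172; -1.23 and 0.0846 without the 4 arrays at odds with their labelled sex). Herc6, the mouse ISG15 ligase, differed by -0.85 (-0.38 and adjusted p = 0.115 after quantile normalization) and Trim30a by -0.32. Trim25, the ligase that activates RIG-I, differed by -0.24 and did not pass (adjusted p = 0.168). Trim30a turned to 0.03 when arrays were centred on their 75th percentile. It lost its call without GMP WT array 1 (adjusted p = 0.0744), LSK array 1 (0.0689) or LSK array 3 (0.0576).

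All 4 genes of the ADP-ribosyltransferase group fell, with Parp12 at -1.70, Parp14 at -1.08, Parp9 at -0.91 and Dtx3l, the ubiquitin ligase that partners PARP9, at -0.45. Dtx3l also had a dimmer probe set that differed by 0.21, and its call was lost without GMP WT array 1 or 2 or LSK array 1 or 3 (adjusted p from 0.0635 to 0.0773) and with centring (-0.10). Of the 3 antigen-processing genes 1 fell. Tap1, which pumps peptides into the endoplasmic reticulum, fell by 0.53, and this call was lost without GMP WT array 1 or 3 or LSK array 1 or 2 (adjusted p from 0.0547 to 0.0678) and under both other scalings (-0.42 and -0.18). Psmb8 and Psmb9, catalytic subunits of the immunoproteasome, differed by -0.02 and -0.0012 (adjusted p = 0.862 and 0.992), and became 0.33 and 0.35 with 75th-percentile centring (adjusted p = 0.0148 and 0.0109).

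Stat2, the member that transmits the signal, was 8.19, 8.19 and 8.26 in LSK cells and 7.30, 7.36 and 7.72 in wild-type GMPs (-0.75 ± 0.14 SE, limma adjusted p = 0.00361). A dimmer probe set of Stat2 differed by 0.24, and the call was lost on the mean of both (-0.26, adjusted p = 0.285) and after quantile normalization (-0.22, 0.263). Of the 5 remaining members 4 fell. Rtp4, a chaperone of receptors known to be strongly induced by interferon, was 9.79, 9.74 and 9.96 in LSK cells against 5.87, 6.11 and 6.23 in wild-type GMPs. Its difference of -3.76 ± 0.31 (SE), 13.6-fold, was the largest among the members. Ifi27l2a was 9.76, 10.16 and 10.54 against 6.89, 7.91 and 7.79 (-2.62 ± 0.34). Xaf1, a partner of apoptosis inhibitors, differed by -1.68 and Lgals3bp, a secreted glycoprotein, by -1.34. Ifi35 overlapped between the groups, at 0.07 (adjusted p = 0.553), and passed as a rise with 75th-percentile centring (0.42, adjusted p = 0.0052). Its dimmer probe sets differed by -0.13 and -0.59.

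**Figure D2:**
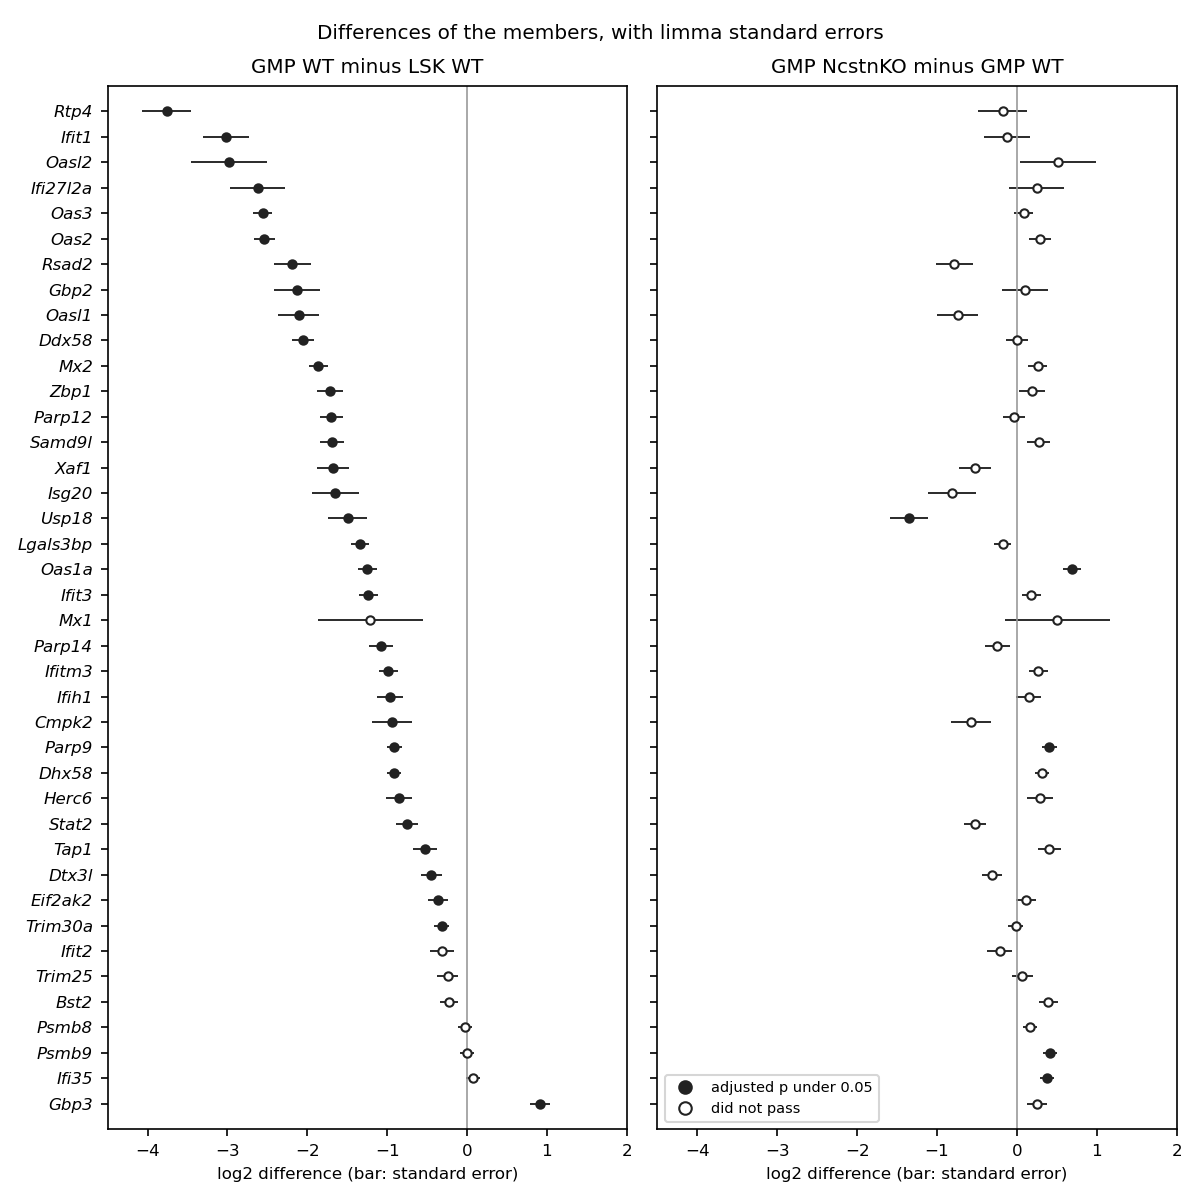
Log2 differences of the 40 members for GMP WT minus LSK WT (left) and GMP NcstnKO minus GMP WT (right), in the order of the left panel; points are the fitted differences, bars their standard errors, and filled points passed the test. On the left 32 filled points lie below 0 and Gbp3 above it, and on the right 5 points are filled, Usp18 below 0 and Oas1a, Parp9, Psmb9 and Ifi35 above it.

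Markers of other cell types were read on the same arrays, where 30.5% of all genes were lower in wild-type GMPs and 7.48% higher. Of 9 B-lineage and lymphoid markers 8 were lower in wild-type GMPs, with a median difference of -2.34. Their summed intensity was 16276 to 23917 in LSK cells and 4532 to 6266 in GMPs, and none was at background in either group. Late neutrophil markers were lower in 9 of 10 (summed intensity 73811 to 97524 against 35229 to 47072). Of 11 dendritic cell markers 5 were lower (18989 to 24313 against 7782 to 15663), of 10 T and NK cell markers 6 were lower and 2 higher (5439 to 7699 against 11103 to 11850), of 10 erythroid markers 5 were lower (41352 to 45536 against 22225 to 35579), and of 12 macrophage and monocyte markers 4 were lower and 2 higher (5871 to 8866 against 10560 to 12459). With quantile normalization and with centring the lower B-lineage markers numbered 4 and 4, dendritic cell markers 3 and 2, macrophage and monocyte markers 0 and 2, erythroid markers 3 and 3, T and NK markers 6 and 6, and late neutrophil markers 9 and 7. The counts of all genes under both scalings are given above with those of the members. The part of these cells in the members' difference was not tested. Sca1, for which LSK cells were gated positive and GMPs negative, is itself an interferon-inducible antigen, so the gate and the population cannot be told apart.

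Between the GMP groups, 5 members passed the test. This comparison sets Ncstn flox/flox Mx1-cre+ against Ncstn flox/flox progenitors of the same gate. Of the 40 members 4 rose and 1 fell in the knockout (limma adjusted p under 0.05), where 2.44% of all genes rose and 3.26% fell. The members' median difference was 0.13 against 0.06 for all genes, and 15 members were under an unadjusted p of 0.05. The groups did not overlap in 12 members that were higher and 6 that were lower, 18 of 40, against 31.9% of all genes. With centring 5 members rose and 1 fell, while all genes went from 443 higher and 594 lower as deposited to 622 and 494.

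Usp18 fell. It was 7.93, 7.29 and 7.78 on the wild-type GMP arrays and 6.63, 6.14 and 6.18 on the knockout arrays. Every knockout array lay at least 0.66 below every wild-type GMP array, and the difference was -1.35 ± 0.24 (SE, limma adjusted p = 0.0264), 2.55-fold. Usp18 was thus highest in LSK cells, intermediate in wild-type GMPs and lowest in knockout GMPs, with no overlap between neighbours.

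Oas1a rose. It was 8.77, 8.63 and 8.78 in wild-type GMPs and 9.28, 9.33 and 9.62 in knockout GMPs, a difference of 0.69 ± 0.11 (SE, limma adjusted p = 0.0230). All 3 knockout arrays were above all wild-type GMP arrays and below all LSK arrays, which stood at 9.83 to 10.07. Of the other 4 oligoadenylate synthetase genes none passed.

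Parp9 and the immunoproteasome subunit Psmb9 rose by about the same amount. Parp9 was 9.25, 9.04 and 9.17 in wild-type GMPs and 9.48, 9.55 and 9.64 in knockout GMPs (0.40 ± 0.09 SE, limma adjusted p = 0.0446). Dtx3l, the head-to-head neighbour of Parp9, was 11.95 to 12.15 and 11.46 to 11.93 and differed by -0.31 (adjusted p = 0.173). Psmb9 was 11.73, 11.85 and 11.88 in wild-type GMPs and 12.19, 12.33 and 12.18 in the knockout (0.41 ± 0.08 SE, adjusted p = 0.0350). Its LSK arrays, at 11.76 to 11.86, lay within the wild-type GMP range, so Psmb9 was highest in the knockout. Tap1, whose 300-base promoter window shares 275 bases with that of Psmb9 on the opposite strand, differed by 0.41 with more spread (adjusted p = 0.136) and was past the threshold only without GMP NcstnKO array 3 (0.59, adjusted p = 0.0493, in 1 of 21 alternatives). Psmb8 differed by 0.16 (adjusted p = 0.307).

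Ifi35, an interferon-induced leucine zipper protein, rose. It was 11.99, 11.89 and 11.91 in wild-type GMPs and 12.39, 12.30 and 12.24 in the knockout (0.38 ± 0.09 SE, limma adjusted p = 0.0427), again above the LSK arrays at 11.75 to 11.97. Its other 2 probe sets, which are dimmer, differed by 0.53 and 0.31. On the dimmest of them the knockout mean lay below that of LSK cells (8.03 and 8.32).

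**Figure D3:**
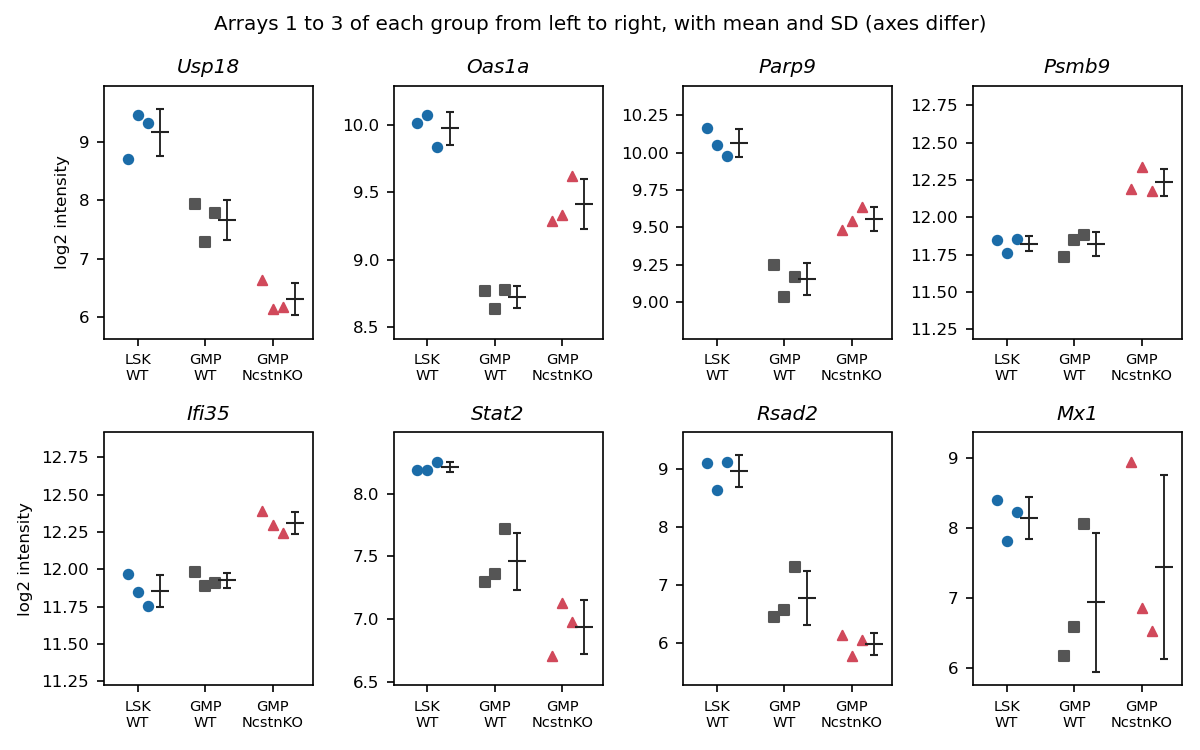
Log2 intensity of selected members on each of the 9 arrays (points), with group means and SD bars, for LSK WT, GMP WT and GMP NcstnKO; the vertical axes differ between panels and do not start at 0. Usp18 steps down from group to group, Oas1a and Parp9 are lowest in wild-type GMPs, Psmb9 and Ifi35 are highest in the knockout, and the Mx1 values of both GMP groups are scattered.

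These 5 calls depended on the choice of arrays and model. Without GMP WT array 3 no member passed limma's adjusted test, 12 were under an unadjusted p of 0.05, and 2 genes passed among all genes. Over all 40 members, the count was 1 without GMP WT array 1, GMP WT array 2 or GMP NcstnKO array 3. In the last of these the member was Tap1, which is not among the 5. The count was 2 without GMP NcstnKO array 1 or 2 or LSK array 1 or 3, and 3 without LSK array 2. It was 0 in a fit of the GMP arrays alone, where 6 genes passed in all and 13 members were under an unadjusted p of 0.05. Over 21 alternatives Oas1a passed in 12, Usp18 in 11, Psmb9 in 6, Parp9 in 4 and Ifi35 in 3, and no difference of these genes changed sign.

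Sex, RNA quality and other cell types also moved between the GMP groups. With sex by transcripts as a covariate no member passed and 12 were under an unadjusted p of 0.05 (limma adjusted p for Oas1a 0.113, Usp18 0.123, Psmb9 0.123, Ifi35 0.200, Parp9 0.207). Leaving out the arrays whose sex transcripts contradict the label kept only array 1 of each GMP group. Between these single arrays the difference of Usp18 was -1.30 and that of Oas1a 0.52. The log2 ratio of the 3′ to the 5′ Actb control probe set, a measure of RNA integrity and of the reach of amplification, was 0.899 ± 0.140 in the knockout and 0.577 ± 0.111 in wild-type GMPs (SD, n = 3, exact 2-sided permutation p = 0.10, the smallest this design allows). With it as a covariate the differences were -2.10 for Usp18 and 0.70 for Oas1a, and no member passed, with 8 under an unadjusted p of 0.05. Among all genes 3.26% were lower in the knockout and 2.44% higher. Of 10 erythroid markers 6 were lower in the knockout (median -1.36, summed intensity 12725 to 16532 against 22225 to 35579), and 1 was at background in both groups. Of 12 macrophage and monocyte markers 3 were lower, C1qa, C1qb and C1qc, with summed intensities of 9565 to 12053 against 10560 to 12459. Prf1 was the T and NK marker that fell (sum 9867 to 10882 against 11103 to 11850), Camp the late neutrophil marker that rose (50628 to 58477 against 35229 to 47072), and no dendritic cell (9567 to 15031 against 7782 to 15663) or B-lineage marker (2950 to 10918 against 4532 to 6266) passed. The part of sex and of these cells in the 5 calls was not tested.

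The remaining 35 members did not pass between the GMP groups. Those nearest the threshold went in both directions. Dhx58 was 7.93 to 8.02 in wild-type GMPs and 8.27 to 8.34 in the knockout (0.32, limma adjusted p = 0.0653), and Bst2 9.55 to 9.86 and 10.01 to 10.15 (0.40, 0.0772). Stat2 was 7.30, 7.36 and 7.72 against 6.71, 7.13 and 6.98 (-0.52, 0.0656), and Rsad2 6.44, 6.56 and 7.30 against 6.14, 5.77 and 6.04 (-0.78, 0.0846). The groups did not overlap in any of these 4 genes. Dhx58 was past the threshold in 3 of 21 alternatives (centring, adjusted p = 0.0482, raised background, 0.0496, and without the dimmest genes, 0.0437), and Stat2 in the last of these (0.0459). Isg20 differed by -0.81 (0.138), with overlapping arrays. The knockout mean of Oasl1 was at background, so it was at least 1.20-fold lower (means 4.05 and 4.79, adjusted p = 0.120).

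Members with the largest differences between the wild-type populations did not pass between the GMP groups. Rtp4 was 6.26, 6.37 and 5.05 in the knockout against 5.87 to 6.23 in wild-type GMPs (adjusted p = 0.763). Ifit1 was 4.44, 4.90 and 3.88, with a group mean at background (adjusted p = 0.835). Gbp2 was 7.61, 8.62 and 7.30 (adjusted p = 0.864), and Gbp3 11.03, 11.37 and 11.21 (0.25, adjusted p = 0.256). Oasl2 was 4.14, 5.72 and 5.31 (adjusted p = 0.554), Oas2 5.80 to 6.19 (0.224), Oas3 4.89 to 5.16 (0.694) and Ifi27l2a 7.19 to 8.17 (0.701).

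Mx1, an antiviral GTPase and the source of the Cre promoter, varied most of the members within both GMP groups. It was 8.95, 6.85 and 6.53 in knockout GMPs and 6.17, 6.58 and 8.06 in wild-type GMPs, so a single array of each group was high. The SD was 1.31 in the knockout and 0.99 in wild-type GMPs, in each case at the 99.6th percentile of all genes, against 0.30 in LSK cells, where Oasl2 and Ifit1 varied most (0.47 and 0.45). The difference of 0.51 did not pass (limma adjusted p = 0.681). Oasl2 had the next largest SD in the GMP groups, 0.82 in the knockout and 0.75 in wild-type GMPs. Its values on GMP WT array 2 (3.71) and GMP NcstnKO array 1 (4.14) lay below the background limits of those arrays (4.39 and 4.33). The members' median SD was 0.191 in the knockout, 0.144 in wild-type GMPs and 0.151 in LSK cells, against 0.151, 0.123 and 0.145 for all genes.

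**Figure D4:**
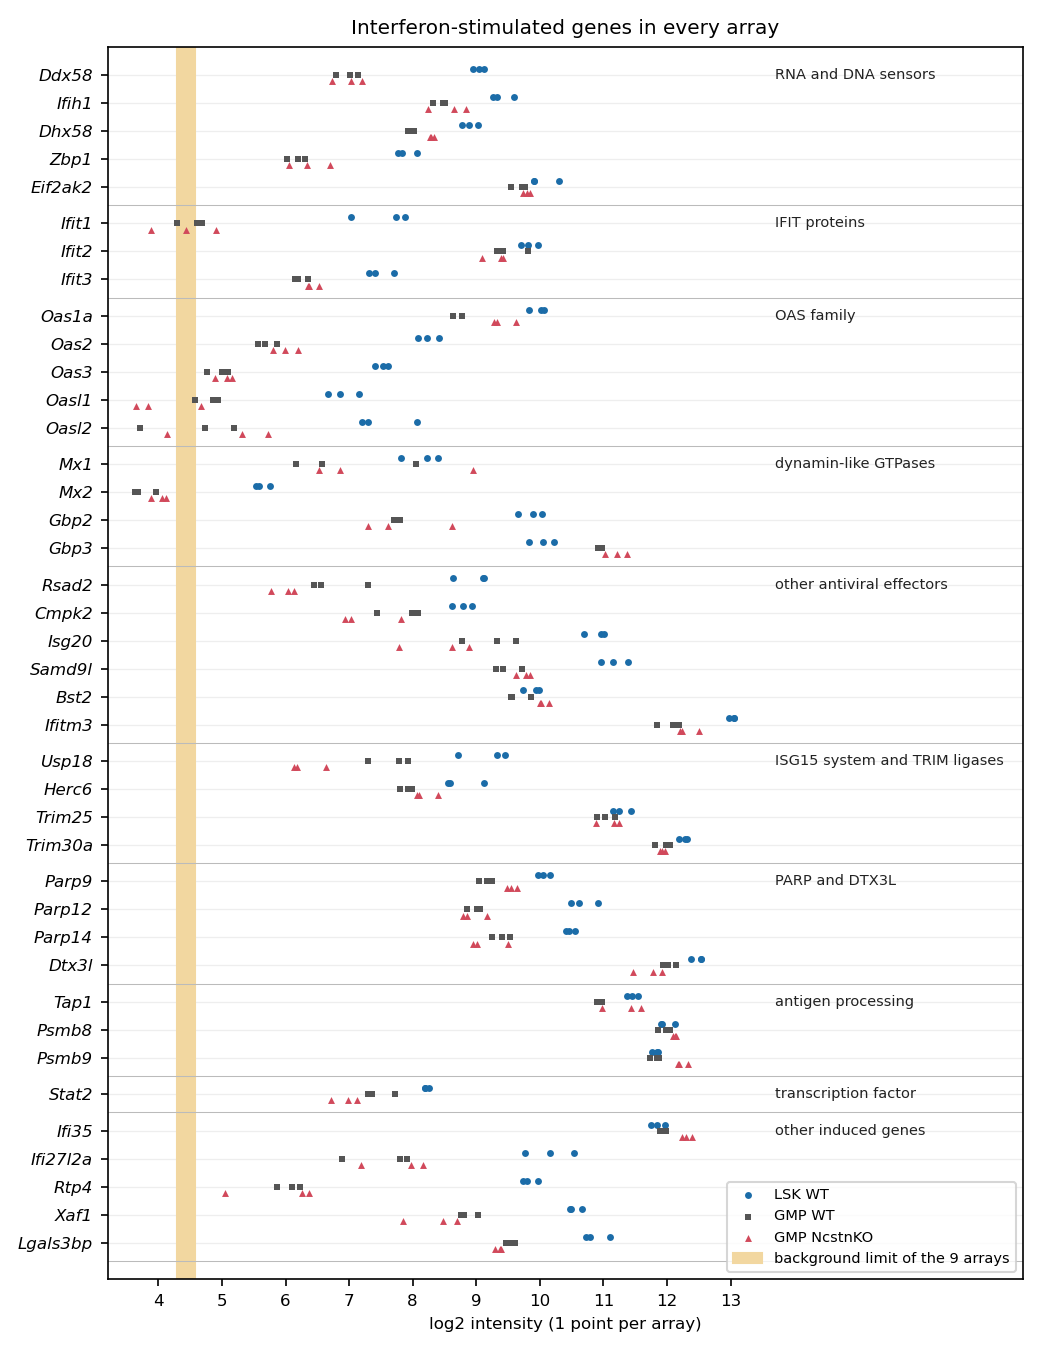
Log2 intensity of each of the 40 members (rows, grouped by role) on the 9 arrays, with symbols and colours for LSK WT, GMP WT and GMP NcstnKO. The shaded band is the range of the background limit, 4.30 to 4.57. LSK points lie to the right of both GMP groups for most members, the LSK points of Gbp3 lie to the left, and Mx1 and Oasl2 have the widest scatter within the GMP groups.

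Against LSK cells the knockout GMPs showed 31 members that fell and 3 that rose (limma adjusted p under 0.05), where 32.3% of all genes fell and 14.6% rose. This comparison shares its LSK arrays with the wild-type one and its knockout arrays with the genotype one, so its values are given beside theirs and not as a further result. The median difference was -1.30, against -0.12 for all genes. After quantile normalization 25 members fell and 4 rose (all genes 3807 and 5447), and with centring 25 and 5 (3205 and 7960). Rtp4 stood at -3.94 against LSK cells in the knockout and -3.76 in the wild type, Rsad2 at -2.97 and -2.19, Usp18 at -2.85 and -1.50, Isg20 at -2.46 and -1.65, and Stat2 at -1.27 and -0.75. Ifit1 was at least 7.50-fold lower in the knockout than in LSK cells (means 4.41 and 7.55, adjusted p = 7.78e-05), Oasl1 at least 5.17-fold (4.05 and 6.89, adjusted p = 7.03e-05) and Mx2 at least 2.28-fold (4.02 and 5.62, adjusted p = 3.16e-05), all 3 with a knockout mean at background. The 3 members that rose were Gbp3 by 1.17, Ifi35 by 0.45 and Psmb9 by 0.41. The dimmer probe sets of Ifi35 differed by 0.40 and -0.28, so they did not share a direction.

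Over all 3 groups, the mean was highest in LSK cells for 35 of the 40 members, against 56.1% of all genes, and in the knockout for Gbp3, Bst2, Psmb8, Psmb9 and Ifi35. The arrays of all 3 groups were separate in 13 of the 40 members, against 13.5% of all genes. Rsad2, Usp18, Dtx3l, Stat2, Xaf1 and Lgals3bp ran from LSK cells down through wild-type to knockout GMPs, an order held by 6.95% of all genes. Dhx58, Ifit3, Oas1a, Ifitm3, Herc6 and Parp9 had knockout GMPs between the wild-type populations, an order held by 2.59% of all genes. Gbp3 alone ran upward from LSK cells to knockout GMPs, an order held by 3.19% of all genes. In the other members at least a pair of groups overlapped, and their order was not resolved.

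The signalling genes around the members were read from a separate list of 39 pathway genes, of which 36 were measured. In wild-type GMPs 15 fell and 2 rose relative to LSK cells, with a median of -0.23. Among all genes 30.5% fell and 7.48% rose, with a median of -0.18. After quantile normalization 8 fell and 4 rose, and with centring 10 fell and 6 rose. Among ligands, the type I interferon genes Ifnb1, Ifna2 and Ifna4 were at background in every group, whereas Ifna1 had means of 4.76 in LSK cells, 4.81 in wild-type GMPs and 5.08 in the knockout, just above it. Ifng was 4.99 to 5.51 in LSK cells and at background in both GMP groups. Of 6 receptor genes 4 fell, among them Ifnar1 at -0.49, but 0 and 1 did so after quantile normalization and centring, while Ifngr1, the ligand-binding chain for interferon gamma, rose from 10.40 to 10.73 in LSK cells to 11.71 to 11.97 in wild-type GMPs (1.24 ± 0.12 SE).

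Of the 3 receptor kinases Jak1 and Jak2 fell, Jak2 by 0.41 as deposited (adjusted p = 0.0349) but not under the other scalings (-0.32 and -0.06). Jak1, shared by type I and type II receptors, was 11.42 to 11.65 in LSK cells, 10.65 to 10.85 in wild-type GMPs and 10.13 to 10.33 in the knockout. It fell by 0.80 between the wild-type populations and by a further 0.56 in the knockout (limma adjusted p = 0.0271). Among the transcription factors, Irf7, the amplifier of interferon production, was 7.85 to 8.35 in LSK cells and 5.79 to 7.09 in wild-type GMPs (-1.77). Irf9, the DNA-binding partner of STAT2, differed by -1.16 and Irf1 by -1.15, while Irf8, a factor of monocyte and dendritic cell fate, rose by 0.95. No transcription factor on the list passed between the GMP groups.

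Upstream of interferon, Tlr7, an endosomal receptor for single-stranded RNA, was 8.32 to 8.97 in LSK cells and 5.66 to 5.95 in wild-type GMPs (-2.77). It was 6.42 to 6.57 in the knockout, a rise of 0.69 over wild-type GMPs (limma adjusted p = 0.0470). Mavs, the adaptor of RIG-I and MDA5, fell by 0.44 in the knockout (adjusted p = 0.0389). Between the wild-type populations it fell by 0.46 as deposited and stood at 0.05 after quantile normalization, with no call. Both ISG15-conjugating enzymes fell in wild-type GMPs, Uba7 by 1.39 and Ube2l6 by 1.14, the latter without a call after quantile normalization (-0.57, adjusted p = 0.101). Of the 4 pathway brakes Socs3, an inhibitor of JAK kinases, was 9.54, 9.80 and 10.55 in LSK cells, 6.50, 7.38 and 5.94 in wild-type GMPs and 8.62, 7.82 and 8.98 in the knockout. It fell by 3.36 between the wild-type populations and rose by 1.87 in the knockout (adjusted p = 0.0428). Of the 36 genes, 2 rose and 2 fell between the GMP groups, namely Tlr7 and Socs3, and Jak1 and Mavs. Among all genes 2.44% rose and 3.26% fell. After quantile normalization Jak1 alone passed, with Tlr7 at an adjusted p of 0.0541, Mavs at 0.0643 and Socs3 at 0.0503.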

How the data were processed

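Total RNA (5 ng) from each of 9 sorted samples was amplified with the Nugen Ovation system and hybridised to Affymetrix mouse arrays, per the labels' protocols. The authors deposited 1 intensity per probe set and array on a linear scale, summarised by RMA per the submitters' processing notes (version not given). RMA makes the distributions of arrays alike, yet the deposited array medians differ between LSK and GMP, so differences were also computed with arrays made equal by quantile normalization, or centred on their 75th percentile.

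Intensities were taken to log2. Of 45101 probe sets 64 were controls, 932 carried several gene symbols and 9160 none; of the rest (34945), the probe set with the highest mean per symbol was kept, giving 18193 genes. The background limit of an array is the 95th percentile of 27 probe sets for bacterial transcripts that were not spiked in, and a group mean at or below it is at background; lower bounds set the dimmer group to that limit. limma 3.58.1 (R 4.3.3, lmFit and eBayes) was fitted to 3 group means over all 9 arrays, with 2-sided p-values adjusted by Benjamini-Hochberg over all genes at 0.05. The fit was also run on simulated data with independent noise. These data held no differences of sex, RNA quality or replicate number, so they do not bear on those.

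Members and gene lists were chosen with earlier results of these data known. Every member is named by role. Array values are given in full for members called between the GMP groups, the 8 largest falls in wild-type GMPs against LSK cells, members called against that direction, Mx1 and Stat2. Of the pathway list, genes called between the GMP groups and up to 3 per group of genes are named, and Ifna1, Ifna4 and Irf8 were added after their values were seen; of the markers, the gate genes and those called between the GMP groups.

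Replicate numbers come from the sample titles. Same-numbered LSK WT and GMP WT arrays deviated from their group means together (correlations over genes 0.219, 0.238 and 0.291), and the knockout arrays did not follow the wild-type GMP arrays of their number (-0.092, 0.0037 and 0.022). Same-numbered LSK WT and GMP WT arrays also share their sex by transcripts, and no label states a shared mouse. A fit with the number as a block was therefore run as an alternative.

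Promoter windows came from RefSeq's table (GRCm38.p6), matched by symbol: 30 members matched, with 35 windows. The ISRE core GAAANNGAA and the GAS element TTCNNNGAA were searched on both strands in the 250 bases before the start.

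Alternatives covered scaling, probe set choice, dim genes, background, covariates (labelled sex, sex by transcripts, Actb ratio), the groups fitted, the replicate block and each array left out. Leaving out the 4 arrays whose sex transcripts contradict the label was chosen after seeing the data. The number of arrays limits the precision.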

Additional observations from a re-analysis of the deposited data

How the results depend on the processing

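The lower level of the members in wild-type GMPs than in LSK cells kept its direction under all 21 alternatives, with 26 to 33 members called, and that of knockout GMPs against LSK cells with 28 to 34. Medians moved with the scaling: for wild-type GMPs against LSK cells the median was -0.87 with 75th-percentile centring, -0.89 after quantile normalization, -0.99 without the dimmest 40% of genes, -1.16 with the Actb ratio as a covariate, and -1.28 to -1.13 with each array left out. For knockout GMPs against LSK cells it was -0.92, -0.83, -0.82 and -1.15 in the same order, -1.13 on the mean of all probe sets, and -1.51 without the 4 arrays at odds with their labelled sex, which leaves 1 array in each GMP group, assumed to vary like the others. Under centring Trim30a turned to 0.029 and 0.046 against LSK cells in wild-type and knockout GMPs, and Psmb8 and Psmb9 to 0.33 and 0.35 in wild-type GMPs; the cause was not tested beyond the shift of the median of all genes, from -0.18 to 0.17 (wild-type) and from -0.12 to 0.26 (knockout).

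Between the GMP groups the count of called members was 5 of 40. It was 0 with the Actb ratio, with labelled sex or with sex by transcripts as a covariate, 0 in a fit of the compared groups alone, 0 without the 4 arrays at odds with their label (unadjusted p under 0.05 in 8, 12, 12, 13 and 13 members by limma), 2 with each probe set tested alone, and 0 to 3 with each array left out. It was 4 to 7 under the other scalings, the mean of probe sets, raised background and the filter on dim genes. The members' median difference as deposited was 0.13 and their mean difference 0.0084. Their median level per array was 8.54 to 8.63 in wild-type GMPs and 8.41 to 8.66 in the knockout, so the groups overlapped.

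With the replicate block the counts against LSK cells did not change (33 and 34), and the count between the GMP groups was 0, with 15 members under an unadjusted p of 0.05 and 370 of all genes called by limma (1037 without the block). The adjusted p under the block was 0.0512 for Oas1a, 0.0533 for Usp18, 0.0572 for Ifi35, 0.0645 for Psmb9 and 0.0753 for Parp9. No label states that the knockout numbers are paired with the others, and why these calls were lost under the block was not tested. Mx2 and, in the knockout, Ifit1 and Oasl1 are limited by the array background. Ifit1 on GMP WT array 1, and Oasl2 on GMP WT array 2 and GMP NcstnKO array 1, also lay below the limit of their array.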
